A study of Mus musculus with 72 samples.

Results

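The genes of mouse chromosome 12 that lie past 75 Mb gave unequal amounts of RNA from their 2 alleles in every library of the series. The region was chosen with earlier results of these data known. Its genes were then taken by position alone, as all genes of the count files on chromosome 12 with a lowest start of at least 75000000 (mm10), except Esrrb, Dlk1, Meg3, Rian, Mirg and Rtl1. This left 384 genes of the 712 on the chromosome and of 22556 in the files. The other 322 genes of chromosome 12, all before 75 Mb, serve as the comparison within the chromosome.

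The libraries were ChrRNA-seq, which sequences RNA still bound to chromatin and so reads mostly recent transcription. All 72 libraries came from female (XX) mouse embryonic stem cells (mESCs) of one F1 hybrid parent, Dom/129S x Cast, so that each autosome is present as a Dom (129S) and a Cast (CAST/EiJ) copy. In the iXist-ChrX-Dom line the Xist promoter on the Dom X chromosome was replaced by a doxycycline-responsive one, and in the iXist-ChrX-Cast line that on the Cast X. Cells were differentiated towards neural progenitor cells (NPCs) with doxycycline for 2, 3, 5 or 7 days (early) or 15, 21 or 35 days (late), and the iXist-ChrX-Dom line also for 52 days. The wild-type (WT) cells of each line were compared with SmcHD1 knockout cells, which carry the same Xist system: clone A3 in the iXist-ChrX-Dom line, and clones D5 and G6 in the iXist-ChrX-Cast line. Each knockout line is a single clone, and the uninduced ES libraries come from the knockout clones only. Of the 65 replicates counted here, 5 were ES, 43 early and 17 late, and late days had 1 replicate per clone, so late contrasts of knockout with WT take day as a block. Early replicates came, per the study, from repeated time courses of the same clones, so p-values measure only the spread between these samples and not that between clones.

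Where both copies of an autosomal gene are transcribed equally, about equal numbers of fragments carry the letters of each parent at variable positions, and the share of one parent lies near 0.5. Single genes depart from this through differences in their regulatory sequence or through imprinting, in which the parent of origin decides which copy is used. Distal chromosome 12 holds the imprinted Dlk1-Meg3 cluster, whose main genes were left out by the rule. When a long run of neighbouring genes departs together, the shares describe a chromosome region.

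The total depth was 9344054 to 56290046 fragments per replicate (median 25726458), of which 4186656 to 27810265 (median 11937451) could be given to an allele. A share was used where a gene had at least 10 allelic fragments in a replicate, and a gene was kept where over 80% of the 65 replicates had one. This held for 252 members, 209 genes of the rest of chromosome 12 and 11310 autosomal genes elsewhere, while 132 members had too few allelic fragments. The mean allelic depth of the 252 ran from 17.3 to 20410 fragments (median 705). RNA of Smchd1 itself overlapped between genotypes (medians of 566 counts per 1000000 fragments, CPM, in early Dom WT and 551 in early A3, and 615, 552 and 564 in early Cast WT, D5 and G6), so its level does not check the knockout labels. The embryonic markers, 7 genes, were highest in ES libraries (summed CPM of 1217 to 1828) and lowest in late ones (3.68 to 190). The late cells carried more Nes (median 95.8 CPM against 13.4 in ES) and Vim (227 against 25.9), but Sox1 was listed at 0 in all libraries and Pax6 was no higher late (0.868) than in ES (4.74).

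The unequal share set in within a gap of 629.3 kb on the proximal side of the threshold. A single step was placed along all 461 genes of chromosome 12 with a share, in order of start, where it left the least squared residual. On the mean over the 65 replicates it fell between Syt16 (start 73997760, end 74267916), a relative of the synaptotagmins, and Kcnh5 (74897216 to 75177332, minus strand), a voltage-gated potassium channel. Kcnh5 lies just outside the threshold, and Rhoj (start 75308312), a small GTPase, is the most proximal member with a share. The stretches directly upstream of Kcnh5 and Rhoj are shown because these are the 2 most proximal genes with a share past the boundary, and both stretches lie on its distal side. Both are 250 bases from the RefSeq promoter table (GRCm38.p6), read 5′ to 3′ along the gene, with each CG pair in capitals.

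Kcnh5, chr12:75177333-75177582, minus strand: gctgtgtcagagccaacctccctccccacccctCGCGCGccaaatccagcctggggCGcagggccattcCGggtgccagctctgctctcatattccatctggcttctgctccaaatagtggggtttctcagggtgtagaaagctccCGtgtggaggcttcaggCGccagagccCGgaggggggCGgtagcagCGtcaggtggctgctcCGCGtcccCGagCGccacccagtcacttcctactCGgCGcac
Rhoj, chr12:75308063-75308312, plus strand: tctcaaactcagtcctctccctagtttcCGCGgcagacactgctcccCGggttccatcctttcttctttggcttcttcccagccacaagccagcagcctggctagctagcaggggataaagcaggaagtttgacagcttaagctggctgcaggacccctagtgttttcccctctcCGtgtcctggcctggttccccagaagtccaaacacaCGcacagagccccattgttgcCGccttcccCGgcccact

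The Kcnh5 stretch holds 16 CG pairs (25.4% of all promoters of the table hold as many or more), and the Rhoj stretch holds 7 (46.3%). Overlapping pairs were not possible, and CG reads the same on both strands.

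The 3 genes before the step stood close to 0.5, and the 3 past it near 0.75. Hif1a, the oxygen-regulated transcription factor, had a pooled Cast share of 0.503 over 179105 fragments, and between 0.466 and 0.536 in single replicates. Snapc1, a subunit of the complex that starts small nuclear RNA genes, had 0.527 of 8834 fragments and Syt16 0.566 of 2143. Past the step, Kcnh5 had 0.790 of 5888 fragments and Rhoj 0.730 of 31972. Ppp2r5e, a regulatory subunit of protein phosphatase 2A, had 0.732 of 193229, and its lowest replicate (0.710) was above the highest of Hif1a. Syt16 and Kcnh5 were shallow, with medians of 27 and 73 allelic fragments a replicate, and their replicates overlapped: Syt16 ran from 0.357 to 0.773 and Kcnh5 from 0.495 to 0.932. Fitted in each replicate alone, the step lay at Kcnh5 in 38 of 65 and at Syt16 in 17, and 62 of 65 placed it from Snapc1 to Rhoj. The start positions of Snapc1 and Rhoj are 1344 kb apart. Between Syt16 and Kcnh5 lie 2 more genes of the files, neither with enough allelic fragments, so the boundary could not be placed more closely.

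**Figure D1:**
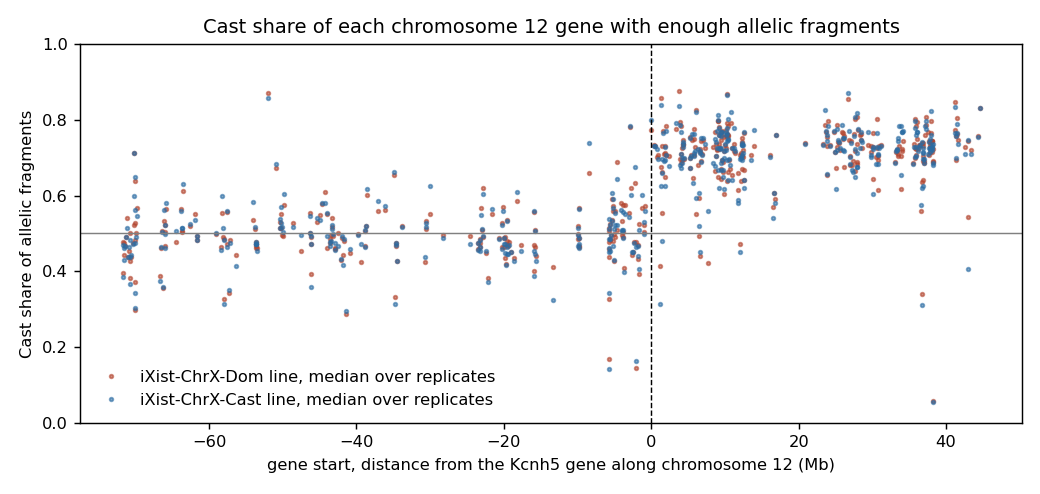
Median Cast share over the replicates of each line (vertical axis, fraction of allelic fragments) of every chromosome 12 gene with a share. The horizontal axis is the distance of the gene start from Kcnh5 in Mb. On the mean over all replicates the step lies at Kcnh5, with a mean of 0.495 before it and 0.711 past it.

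The step was 0.216 in size, from a mean of 0.495 before to 0.711 past it. The largest step of this kind on any other autosome was a fall of -0.117, on chromosome 6. Past the boundary the level stayed high to the end of the chromosome. In bins of 5 Mb, the median was 0.514 in the last bin before 75 Mb and stood at 0.713, 0.720 and 0.717 in the next 3 bins. The bin from 90 to 95 Mb, with 5 genes, was lower at 0.619, with replicates from 0.559 to 0.717, and the 5 bins from 95 Mb on lay between 0.722 and 0.751. Among the other autosomes, chromosomes 5 and 8 also had median shares above 0.5, at 0.583 and 0.556, without such a step (largest steps of -0.042 and -0.032). These medians average the replicates of both lines. They were not split by line, so they do not show whether both lines share the excess.

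Across replicates the median member share ran from 0.701 to 0.739, with a median of 0.725. In the same replicates the rest of chromosome 12 ran from 0.480 to 0.502 (median 0.491) and the other autosomes from 0.479 to 0.494 (median 0.486). The members lay above the rest of the chromosome in 65 of 65 replicates, by 0.199 to 0.245 (median 0.234). Summed over members, 2.37 to 2.85 Cast fragments (median 2.64) were counted for each Dom fragment, against 0.918 to 1.06 (median 0.971) over the rest. The lowest and the highest median both came from late Cast WT, at day 35 and day 21. The day 35 library also had the highest summed CPM of 5 fibroblast genes in the series (5527, against 6.43 to 98.3 in early WT). D5 at day 35 came near it, with 4832 and a median member share of 0.719. G6 at day 35 had 3017 and a share of 0.709. The mESCs were grown on feeder fibroblasts and separated from them before use, and the part of these genes' RNA in the share was not tested.

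**Figure D2:**
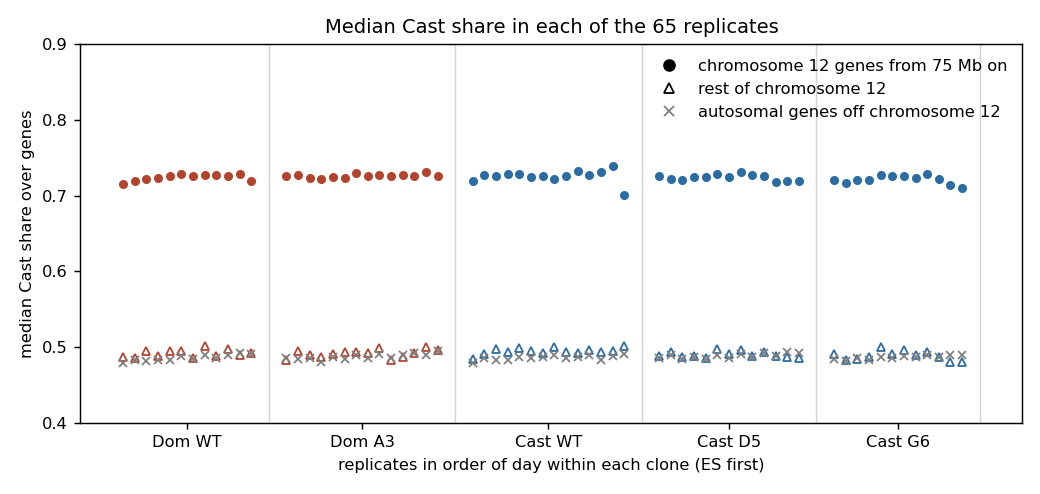
Median Cast share (vertical axis, fraction) of the members, the rest of chromosome 12 and the other autosomes in each of the 65 replicates, by clone and day; the member points lie between 0.701 and 0.739 and none meets the rest of the chromosome, whose highest point is 0.502.

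The 2 lines and the 5 clones overlapped in this median. Early Dom WT had 0.723 ± 0.005 (SD, n = 8) and early Cast WT 0.726 ± 0.004 (SD, n = 11). Early A3 had 0.725 ± 0.003 (SD, n = 8), early D5 0.726 ± 0.003 (SD, n = 8) and early G6 0.723 ± 0.004 (SD, n = 8). The 5 ES replicates, from before Xist was induced, ran from 0.721 to 0.727. Late G6 ran from 0.709 to 0.722 (n = 3), and there the rest of chromosome 12 was also at its lowest, from 0.480 to 0.487.

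Gene by gene, 238 of 252 members (94.4%) had a mean share over 0.6, 11 lay between 0.4 and 0.6 and 3 were under 0.4. On the rest of chromosome 12, 17 of 209 genes (8.13%) were over 0.6, and elsewhere on the autosomes 815 of 11310 (7.21%). On the share scale the interquartile range of the members was 0.0588, against 0.0731 on the rest of the chromosome and 0.0771 elsewhere. On the log2 scale of Cast over Dom fragments, the median member stood at 1.39 (quartiles 1.18 and 1.60). The median gene of the rest stood at -0.05 (quartiles -0.22 and 0.20), so on this scale the 2 sets spread about equally. Against 0.5, by limma with Benjamini-Hochberg adjustment over all genes tested, 244 of 257 members tested in early Dom WT were higher on Cast, where 25.5% of all genes were. In the other early cells the counts were 245 of 256 in A3 (26.1% of all genes), 247 of 258 in Cast WT (24.3%), 249 of 261 in D5 (24.4%) and 242 of 259 in G6 (22%). The region was chosen with earlier results known and this test was added after the data were seen. These counts therefore describe the members and are no independent test of the unequal share.

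**Figure D3:**
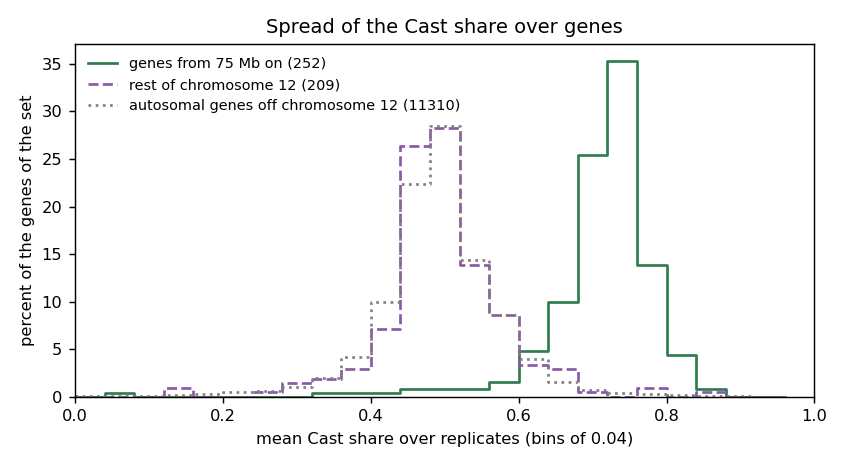
Distribution over genes of the mean Cast share (horizontal axis, fraction), as a percentage of genes, for the members, the rest of chromosome 12 and the other autosomal genes; the members centre on 0.724 and the other sets near 0.491 and 0.490.

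The departure was carried by genes of all 8 roles that were listed. Of genes for RNA processing and translation, 14 of 15 had a mean share over 0.6 (median 0.741), and Papola, the poly(A) polymerase, had 0.726 in the median replicate (0.702 to 0.743). Of chaperones and protein quality control, 9 of 9 with a share were over 0.6 (median 0.751). Hsp90aa1, a cytosolic heat shock chaperone, had 0.797 (0.758 to 0.835) and Atxn3, a deubiquitinase, 0.682 (0.623 to 0.710). The ranges of these 2 genes did not overlap, so members differed among themselves beyond the spread over replicates.

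Of DNA repair and cell cycle, 10 of 10 were over 0.6 (median 0.727), with Rad51b, which acts in homologous recombination, at 0.697 (0.596 to 0.729) and Ncapg2, a condensin II subunit, at 0.763 (0.709 to 0.792). Of transcription and chromatin, 14 of 15 were over 0.6 (median 0.696). Foxn3, a forkhead factor, had 0.731 (0.671 to 0.762) and Setd3, an actin histidine methyltransferase, 0.718 (0.663 to 0.745). The list had 1 member between 0.4 and 0.6, Irf2bpl.

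Signalling genes, 12 of 12 over 0.6 (median 0.726), included Mark3, a microtubule affinity-regulating kinase, at 0.739 (0.703 to 0.767) and Rps6ka5, a kinase downstream of MAP kinases, at 0.723 (0.696 to 0.767). Of cytoskeleton and transport, 13 of 13 were over 0.6 (median 0.721). Dync1h1, the heavy chain of cytoplasmic dynein, had 0.733 (0.692 to 0.748). Of metabolism and lysosome, 11 of 11 were over 0.6 (median 0.705), with Fut8, the core fucosyltransferase, at 0.695 (0.628 to 0.819) and Mthfd1, of one-carbon metabolism, at 0.659 (0.510 to 0.779). The neural list had 9 of 11 over 0.6 (median 0.739), 1 between 0.4 and 0.6 and 1 under 0.4. Sipa1l1, a postsynaptic Rap regulator, had 0.728 (0.685 to 0.786) and Flrt2, a guidance and adhesion protein, 0.739 (0.684 to 0.795). Among the other members of greatest depth, Rbm25 (splicing) had 0.739, Gphn (the inhibitory synapse scaffold) 0.786, Lin52 (a DREAM complex subunit) 0.769, Cep128 (centriole) 0.706 and Actn1 (actin crosslinking) 0.698, each in the median of 65 replicates. Pcnx (0.750), Eml5 (0.738), Esyt2 (0.758) and 4933426M11Rik (0.720) lay in the same range.

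A few members stood apart from the rest, and they were chosen after their values were seen. Crip2, a LIM-domain protein, had a share between 0.010 and 0.182 (median 0.057), so that nearly all its allelic fragments were Dom. Ckb, the brain-type creatine kinase, ran from 0.237 to 0.397 (median 0.324), under 0.5 in all 65 replicates. Eif5, a translation initiation factor, stayed near balance at 0.571 (0.499 to 0.622). Irf2bpl (0.457), Akap5 (0.500), Tshr (0.550) and Smoc1 (0.569) also had median shares under 0.6, with wider ranges. At the other end, Tc2n had 0.869 (0.750 to 0.944) and Rps6kl1 0.868 (0.727 to 1.000).

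Between the lines, 19 of 257 members differed in early WT cells by limma with Benjamini-Hochberg adjustment over all genes, against 21.1% of all genes tested. Of these, 6 were higher in iXist-ChrX-Dom and 13 lower. The largest difference was that of Rgs6, a regulator of G protein signalling, at -0.231 ± 0.042 (SE) and an adjusted p of 0.000359. Its shares were 0.203 to 0.609 (median 0.278) in 8 early Dom WT replicates and 0.467 to 0.732 (median 0.537) in 11 of Cast WT. Of those higher in iXist-ChrX-Dom, Plekhh1 differed by 0.042 ± 0.008 (SE), Rapgef5 by 0.031 ± 0.007 and Serpina3m by 0.165 ± 0.046.

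Of the 13 lower shares, 5 lay among the 7 tested genes from Eml1 to Begain. This run was picked out after the values were seen, so its counts describe it and are no test of it. It spans 108371152 to 109068217 (697 kb) and ends 384.6 kb before Dlk1. All 7 of its tested genes had lower shares in Dom WT, by 0.037 to 0.069 (median difference -0.052), and 5 passed the test. The median difference of the other 250 members was 0.001, with 113 of them lower. Evl, an actin regulator, lay between 0.703 and 0.742 in Dom WT and between 0.769 and 0.806 in Cast WT (difference -0.059 ± 0.007 SE, adjusted p = 1.17e-06 by limma). Wars, the cytosolic tryptophanyl-tRNA synthetase, lay between 0.692 and 0.736 against 0.744 and 0.786, and these 2 genes were the members of the run whose groups did not overlap.

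Eml1, a microtubule-binding protein, differed by -0.040 ± 0.014 (SE), Yy1, a zinc finger factor, by -0.039 ± 0.012 and Wdr25 by -0.052 ± 0.009. Slc25a29 (-0.069 ± 0.030) and Begain (-0.037 ± 0.014) did not pass the test. Just before the run, Hhipl1 also had a lower share (-0.054 ± 0.035) and did not pass the test. Farther out, Ccdc85c had -0.013 ± 0.008 and Ppp2r5c 0.004 ± 0.006, neither past the test. The median share over the run was 0.715 in early Dom WT and 0.714 in early A3, against 0.765 in early Cast WT, 0.754 in D5 and 0.756 in G6, so each knockout clone lay nearer to the WT of its own line. Per 1000000 allelic fragments, Evl had 299 on Cast and 110 on Dom in Dom WT, and 369 and 98.7 in Cast WT. Total RNA of Yy1 was lower in Dom WT by -0.44 ± 0.07 (log2, SE, adjusted p = 0.000252 by edgeR) and that of Wars by -0.50 ± 0.10 (adjusted p = 0.00183), while for Evl the difference of -0.30 ± 0.14 did not pass (adjusted p = 0.137).

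**Figure D4:**
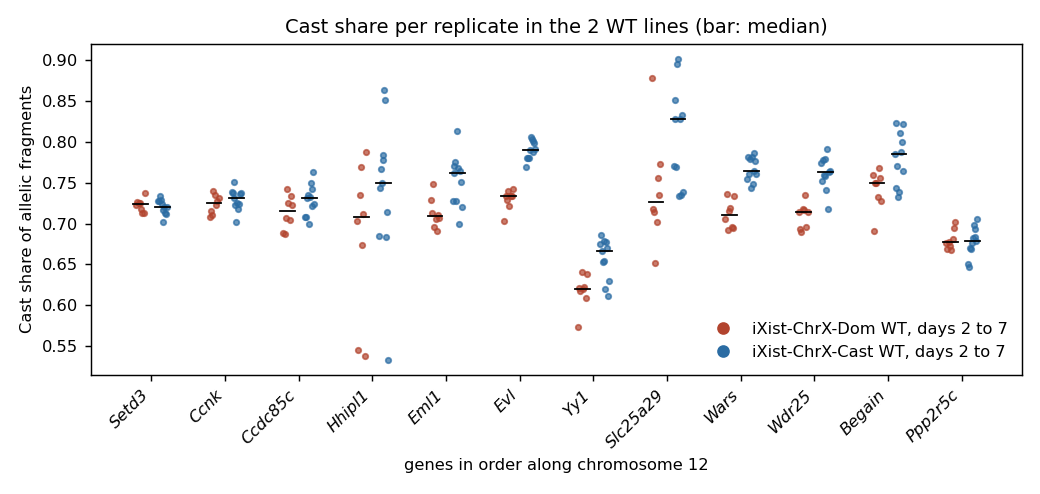
Cast share (vertical axis, fraction) of the genes around the run from Eml1 to Begain in early WT replicates of the 2 lines, genes in order of position; Evl (0.703 to 0.742 against 0.769 to 0.806) and Wars have no overlap between the lines, and Ppp2r5c beyond the run overlaps.

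SmcHD1, a chromosomal protein of the SMC family that acts on the inactive X, was knocked out to ask whether silencing needs it. On distal chromosome 12, the shares of early knockout and WT cells differed little. The median difference over members was 0.002 in A3, and -0.0002 in D5 and -0.0008 in G6. By limma, 0 of 257 members passed in A3 (0.159% of all genes), with 18 at an unadjusted p under 0.05, and edgeR on allelic counts called 2. In D5, 2 of 258 passed (2.63% of all genes): Kcnk10, a two-pore potassium channel, at -0.092 ± 0.024 (SE, adjusted p = 0.0381) and Tecpr2, of autophagy, at -0.027 ± 0.007 (adjusted p = 0.0324). In G6, 0 of 258 passed (0.336%), with 18 at an unadjusted p under 0.05 and 0 by edgeR. Late, with 1 library per clone and day, limma called 0 of 249 in A3 (0% of all genes, 8 at an unadjusted p under 0.05), 0 of 250 in D5 (0.735%, 7 unadjusted) and 0 of 250 in G6 (0.0169%, 12 unadjusted). On allelic counts, edgeR called 0, 1 and 0 late members. The percentages of all genes are not given for edgeR on allelic counts. In simulated late A3 libraries, limma found few of the share differences put in, and edgeR on allelic counts found most of them. With so few libraries, late differences can go undetected.

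Within clones, some members changed share between early and late cells. In Dom WT 8 of 249 passed (3.72% of all genes), in A3 22 of 249 (7.57%), in Cast WT 16 of 249 (7.74%), in D5 23 of 249 (10.4%) and in G6 22 of 249 (9.03%). In the same order, 3.21%, 8.84%, 6.43%, 9.24% and 8.84% of the members passed, near the percentages of all genes. Of 58 members called in any clone, 34 were called in 1, 18 in 2, 4 in 3, and 1 each in 4 and 5 clones. How many of all genes were called in any or in several clones was not counted. The clones of a line share a fit, so these counts are not independent. With R1 and R2 taken apart, G6 had 44, and without the A3 library of day 52, A3 had 7. The percentages of all genes are not given for these settings. Beside this, the summed CPM of the 5 fibroblast genes was 76.7 to 5527 in late and 4.23 to 115 in ES and early libraries. The late medians of Col1a1 (275), Postn (183), Col1a2 (81.9) and Dcn (24.4) lay above the early ones (3.79, 0.17, 5.43 and 1.24). That of Thy1 lay below (0.32 against 1.25). The summed CPM of 5 neuronal genes was 87.3 to 1161 in late and 71.4 to 249 in ES and early libraries. Most of this sum was Map2 (late median 193 CPM, highest 1150). The late medians of Tubb3 (3.10), Rbfox3 (2.11) and Snap25 (11.5) lay below the early ones (3.82, 8.69 and 14.6). That of Dcx lay above (2.75 against 1.28). The sum of 3 astrocyte genes reached 26.45 in A3 at day 52, against at most 1.29 in ES and early libraries. The part of these cell types in the changes was not tested.

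The member called in all 5 was Ston2, an adaptor of synaptic vesicle endocytosis. It stood at 0.547 to 0.594 (median 0.579) in early Dom WT and at 0.618 to 0.720 (median 0.672) in late, without overlap. Late minus early was 0.094 in Dom WT, 0.070 in A3, 0.091 in Cast WT, 0.105 in D5 and 0.116 in G6, with SE of 0.019 to 0.025.

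Mthfd1 rose in Cast WT (0.134 ± 0.024 SE), D5 (0.134 ± 0.025) and G6 (0.097 ± 0.025) and did not pass in Dom WT (0.067) or A3 (0.072). In Dom WT, Rgs6 rose from a median of 0.278 early (0.203 to 0.609) to 0.649 late (0.360 to 0.754), a difference of 0.286 ± 0.070 (SE). Syne2, a nuclear envelope spectrin-repeat protein, rose in A3, Cast WT and D5, by 0.038 to 0.043. Dnal1, a dynein light chain, fell in A3, D5 and G6 (-0.066 to -0.075), and so did D430019H16Rik (-0.169 to -0.234). These genes were named after their values were seen. By the rule for calls against the majority, Gm805 (-0.347) and Pld4 (-0.233) fell in A3, Esr2 (0.273) and Galnt16 (0.203) rose in Cast WT, Angel1 rose in D5 (0.119) and Vash1 rose in G6 (0.164).

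Total RNA was also compared, with the Cast and Dom fragments and those of no allele summed. In bulk samples, fewer cells of a type and less RNA per cell cannot be told apart. The log2 ratio of fragments over members to those over the rest of chromosome 12 ran from 0.296 to 0.987 (median 0.787). Early Dom WT had 0.840 ± 0.056 (SD, n = 8), early A3 0.807 ± 0.069 (n = 8), early Cast WT 0.778 ± 0.071 (n = 11), D5 0.813 ± 0.103 (n = 8) and G6 0.792 ± 0.078 (n = 8), with overlapping ranges. Against WT of the same line and day, the median difference was -0.03 in early A3, 0.02 in early D5 and -0.003 in early G6. Late, it was -0.02 in A3, -0.07 in D5 and -0.24 in G6. The late G6 value rests on 3 replicates from -0.298 to 0.010, and G6 at day 35 had the lowest ratio of the series. That library had a summed fibroblast CPM of 3017, and the WT of the same day 5527. The summed CPM of 5 neuronal genes was 1055 in G6 and 215 in WT at day 35, and 616 and 160 at day 21, and its part in the ratio was not tested. Of these 5 genes, Map2 had the highest median over late libraries (193 CPM), and Snap25 came next (11.5).

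Split by allele, the same ratio had a median of 1.36 on Cast (1.03 to 1.53) and -0.08 on Dom (-0.37 to 0.09). The genes compared are different genes, so neither value need be 0, and all libraries carried the unequal share, so no library shows total RNA without it. Dync1h1 supplied 5.61% of the members' fragments, Rbm25 4.61%, Rad51b 3.75%, Sipa1l1 3.29% and Papola 2.32%. Without these 5 genes the medians against WT were -0.04 (A3) and 0.001 (D5) early, and -0.11 (D5) and -0.18 (G6) late. With the autosomes off chromosome 12 as the base, early A3 came to 0.01, above WT in 5 of 8 replicates against 2 of 8 with the rest of chromosome 12 as the base. Taken as the median gene, early D5 came to -0.02, late D5 to -0.13 and late G6 to -0.14, so the sign of the early differences depended on the measure.

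**Figure D5:**
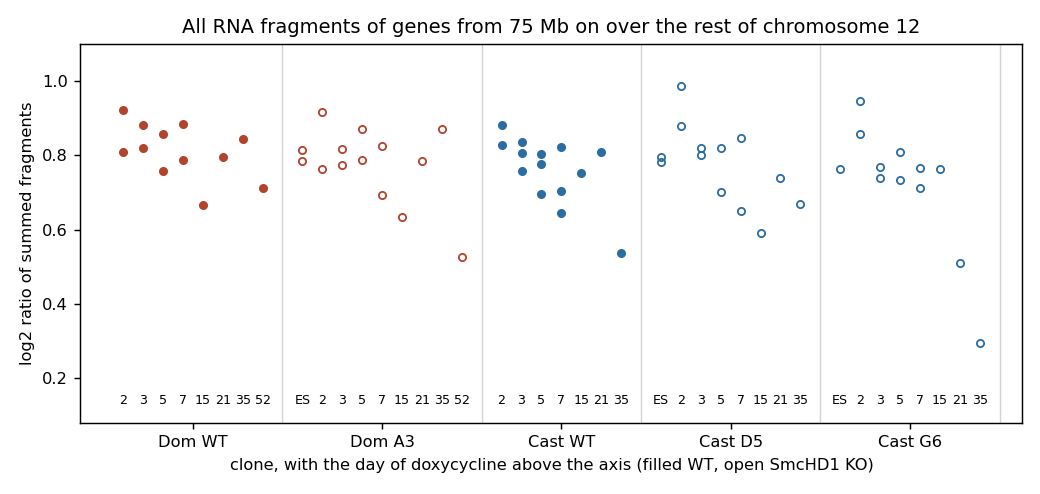
Log2 ratio of fragments summed over the members to fragments summed over the rest of chromosome 12 (vertical axis, log2) in each replicate by clone and day; the points run from 0.296 (G6, day 35) to 0.987 (D5, day 2), and the early clones overlap.

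By gene, total RNA of 61 of 310 members differed between early Dom WT and Cast WT (edgeR quasi-likelihood test with Benjamini-Hochberg adjustment), 28 higher and 33 lower, against 26.3% of all genes. Higher in Dom WT were Smoc1, a matricellular protein (log2 1.24 ± 0.27 SE, 25.4 to 123 CPM against 11.1 to 39.7), and Rgs6 (1.22 ± 0.26, 22.9 to 54.1 CPM against 4.91 to 26.3). Papln was higher by 1.02 ± 0.22. By role, the signalling list had 4 of 13 lower and none higher, among them Pgf, a placental growth factor (-1.29 ± 0.26 SE). The metabolism and lysosome list had 2 higher and 3 lower of 13. With 26.3% of all genes called, counts this small describe the lists and are no result about a role. The transcription list had 3 higher, among them Mta1 (0.21 ± 0.07), and 2 lower, among them Yy1.

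In early A3, 1 of 311 members passed (0.803% of all genes), Mok, a MAP kinase relative, lower by -0.73 ± 0.14 (log2, SE, adjusted p = 0.0314 by edgeR), from 22.4 to 48.4 CPM in WT to 12.9 to 31.9. In early D5, 32 of 308 passed, 10 higher and 22 lower (11% of all genes). The lowest adjusted p was that of Mfsd7c, a transporter, with 8.97 to 33.8 CPM in WT and 5.51 to 17.7 in D5 (-1.03 ± 0.12). Ckb was higher in D5 (0.67 ± 0.13), at 17.6 to 80.8 CPM against 11.5 to 45.1, while Sipa1l1 (-0.49 ± 0.10), Fut8 (-0.51 ± 0.11) and Actn1 (-0.38 ± 0.11) were lower. Against most called members, Gm1995 (1.46 ± 0.45), Gm2016 (0.95 ± 0.31) and Ccdc177 (0.94 ± 0.28) were higher. In early G6, 4 of 308 passed (2.25%): Nrxn3, a presynaptic neurexin (1.00 ± 0.25), Galnt16 (0.70 ± 0.17) and Rcor1 (0.26 ± 0.07) were higher and Fam161b (-0.46 ± 0.12) lower. Rcor1, a corepressor, was lower in D5 (-0.22 ± 0.07) and higher in G6, both against the same WT replicates. With the replicate number as a block, edgeR called 53 members in D5 and 25 in G6. The percentage of all genes is not given for this setting.

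Late, edgeR called 0 of 296 members in A3 (0% of all genes, 32 at an unadjusted p under 0.05), 0 of 288 in D5 (0%, 23 unadjusted) and 0 of 288 in G6 (0.00668%, 48 unadjusted).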

How the data were processed

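The authors removed rRNA reads with Bowtie2 (2.3.2), aligned the rest with STAR (2.4.2a) to mm10 with the strain variants masked, kept unique alignments, split them by allele with SNPsplit, and counted fragments over whole genes, introns included, on the sense strand with featureCounts. The deposited files hold raw counts per gene, in total and for each allele. The authors' ratio table of iXist-ChrX-Cast, a fraction, served only to name the Cast column, since 18337 of 18337 of its values compared equalled Cast over both alleles. The 26 columns of the iXist-ChrX-Dom ratio table were not used. Masking limits mapping bias but its remainder could move shares.

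The labels give 7 replicates as R1 and R2 without saying whether these are repeat runs or separate cultures. Their counts differed beyond sampling noise (chi-square per degree of freedom of 18.4 to 95.1), and they were summed and counted once. Shares (Cast over Cast plus Dom) were tested by limma 3.58.1, and total counts by edgeR 4.0.16 (TMM, filterByExpr), in R 4.3.3. All tests had Benjamini-Hochberg adjustment over all genes, X-linked ones included, and a threshold of 0.05. For shares, a gene needed at least 10 allelic fragments in over 80% of the WT samples of a fit, and a share in every sample. Knockout contrasts had day and clone as terms, and the contrast of the lines had day and line. Late against early fits had a mean for each clone and period and no day term. The test against 0.5 took the early samples of each clone alone, with no further term. Its depth filter used those samples in place of WT. The fits were tested on simulated data, where limma on late shares found few of the differences put in. Alternatives included DESeq2 1.42.0. The test of shares against 0.5 was added after the data were seen. The members, role lists and tests were chosen with earlier results of these data known. Genes named are the 15 members of greatest allelic depth, the 3 genes on each side of the step, the 2 members of each role list with most fragments, up to 3 calls against the majority where over 10 were called, and genes said in place to have been chosen on their values. Genes whose counts overlap another gene or a near copy (Gm1995 and Gm2016, for example) are uncertain. Counts in a share are reads without molecular identifiers. Some items are not reported here.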

Additional observations from a re-analysis of the deposited data

How the results depend on the processing

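Of 677 counts and values recomputed under other settings, 572 stayed near the reported one (counts within 1.5 times, values within the replicate spread), which does not say that the same members were called. The percentages of all genes called are not given for these settings. Shares were called by edgeR on allelic counts for 2 members in A3 early, 1 in D5 late and 15 in Dom WT late against early. A minimum of 5 fragments gave 5 for the last, and R1 and R2 taken apart gave 44 in G6 late against early. Total RNA without a filter called 2 in A3 early and 2 in G6 early, and R1 and R2 apart gave 1 in G6 early. With the replicate block, total RNA was called for 2 members in A3 early, 53 in D5 early and 25 in G6 early, and shares for 0, 2 and 0. The crossed pairing of iXist-ChrX-Dom, added after seeing the data, gave 6 in total RNA of A3 early. Deviations of same-numbered samples from their group means were correlated from -0.74 to -0.48 in iXist-ChrX-Dom (8 pairs) and from -0.62 to 0.82 in iXist-ChrX-Cast (24 pairs). Where a clone had 2 replicates on a day, their deviations mirror each other. The 8 iXist-ChrX-Dom pairs therefore hold 1 distinct value per day, and some iXist-ChrX-Cast pairs repeat likewise. In iXist-ChrX-Cast, D5 and G6 went together on every early day (0.41 to 0.82). WT went with its own number on day 2 (0.69 and 0.80). On days 3 to 7, replicate 3 of WT went with replicate 2 of D5 and G6 (0.60 to 0.82). The numbers were therefore not taken to pair knockout with WT. The causes were not tested.

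Leaving out single replicates gave shares called for 0 to 1 members in A3 early, 0 to 3 in D5 early, 1 to 13 in Dom WT late against early, 7 to 27 in A3, 9 to 24 in Cast WT, 7 to 30 in D5 and 6 to 39 in G6. Total RNA ran from 0 to 3 in A3 early, 0 to 9 in G6 early and 0 to 12 in G6 late. Dom WT fell to 1 without its day 15, day 35 or day 52 library and rose to 13 without A3 at day 52, and A3 fell to 7 without that library. Cast WT had 9 without day 21, D5 had 11 without day 21 and 7 without day 35, and G6 had 39 without day 15, 10 without day 21 and 6 without day 35. The 12 in G6 late also lacked G6 at day 15.

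Centred on the median autosomal share, the median member share was 0.740 in early Dom WT, Cast WT and D5, 0.736 in late Dom WT and A3, 0.741 in A3 ES, 0.739 in early A3, 0.737 in D5 ES, G6 ES and early G6, 0.727 in late D5 and 0.724 in late G6. Pooled fragments gave 0.720 in A3 ES, 0.716 in D5 ES and 0.722 in late D5, and a minimum of 30 fragments 0.729 in A3 ES. Members minus the rest came to 0.230 (pooled) and 0.238 (minimum of 30) in early D5, and 0.240 in G6 ES and 0.230 in early G6 (pooled). The boundary moved to 74.90 Mb with the minimum of 30 in D5 ES, late D5 and late G6. Subtracting the other WT removes a boundary the lines share, and the step left over lay at 112.11 Mb (early WT of both lines), 21.39 (late WT of both), 116.28 (A3 ES), 70.99 (early A3), 113.15 (late A3), 4.92 (D5 ES), 116.05 (early D5), 13.22 (late D5), 54.18 (G6 ES), 73.29 (early G6) and 21.32 Mb (late G6).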
